A study of Mus musculus with 16 samples.

Results

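DEAD and DEAH box proteins are enzymes that use ATP to unwind RNA or to strip proteins from it, and they are named for the Asp-Glu-Ala-Asp or Asp-Glu-Ala-His residues of their ATP-binding motif. They act at each step of the life of an RNA, from splicing and ribosome assembly in the nucleus to export, translation and decay in the cytoplasm. Erythroid progenitors divide fast and make ribosomes at a high rate before they fill with hemoglobin, and several of these helicases serve that ribosome assembly. The set described here holds every gene symbol of the RNA-seq table that starts with Ddx or Dhx followed by a digit, apart from *Ddx58* and *Dhx58*. That gave 50 of the 15386 genes in the RNA-seq table and 49 of the 13490 genes in the m6A table, which lacks *Ddx3y*. After edgeR's filter on low counts, 48 helicases were tested in the RNA-seq experiment (*Ddx25* and *Ddx3y* did not pass) and 49 in the m6A experiment.

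The cells were CFU-E cells, the committed erythroid progenitors that come before proerythroblasts, sorted from the bone marrow of adult C57BL/6 mice. The RNA-seq experiment set 3 libraries of control CFU-E beside 3 libraries labelled as CFU-E Kit-lo and *Mettl3*-deficient, from cells with little of the Kit receptor on their surface. Mettl3 is the enzyme that writes N6-methyladenosine (m6A) on mRNA. The deficient mice carried *Mettl3* fl/fl with *EpoR* Cre/-, and the study's other assays name *EpoR-tdTomato-Cre*/- mice as their controls. The labels of the control libraries used here state no genotype, so whether these controls carried Cre is not given in the sources used here. This Cre recombines in erythroid cells and also in the macrophages of erythroblastic islands. Genotype and Kit gate changed together and cannot be told apart, and nothing in the labels says which libraries came from separate animals, so p-values measure the spread between these libraries. The m6A experiment compared RNA captured with an antibody to m6A (IP, 2 libraries) with the uncaptured RNA (input, 2 libraries), all from control CFU-E.

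Estimated counts totaled 17429262 to 21329242 per RNA-seq library, 19421059 to 23160909 per input library, and 37142742 and 20085663 in IP replicates 1 and 2. *Mettl3* itself was at 115, 123 and 130 CPM (counts scaled to a common library size) in control against 117, 127 and 108 CPM in the libraries labelled CFU-E Kit-lo, so its gene-level count did not set the groups apart (log2 fold change -0.07, adjusted p = 0.63), and directions rest on the labels. *Kit* was at 544 to 629 CPM in control and 44.0 to 68.5 CPM in the libraries labelled CFU-E Kit-lo. The 6 CFU-E genes split: *Kit* and *Car1* were lower there (log2 fold changes -3.44 and -2.46), and *Epor* and *Klf1* higher (both 0.59). *Tfrc* and *Gata1* did not pass the test (-0.13 and 0.07). Of 4 later erythroid genes, 3 were higher in the libraries labelled CFU-E Kit-lo, and their summed level was 107 to 129 CPM in control and 688 to 1289 CPM there. Summed markers of other cells stayed low in both groups. The 6 macrophage genes summed to 8.06 to 12.02 CPM in control and 6.57 to 7.79 CPM in the libraries labelled CFU-E Kit-lo. Of these genes, *Adgre1* had 2 counts in each control library and 0 in each of the others. The 5 granulocyte genes summed to 19.8 to 28.9 and 5.29 to 15.6 CPM. For 3 measured megakaryocyte genes the sums were 4.31 to 6.63 and 6.73 to 16.02 CPM, for 2 B cell genes 0.335 to 0.458 and 0.519 to 1.04 CPM, and for 2 T cell genes 2.12 to 2.92 and 1.21 to 1.98 CPM. Some single markers passed the test. In the libraries labelled CFU-E Kit-lo, *Ngp* (3.31), *Itga2b* (1.62) and *Gp9* (1.31) were higher, and *Mpo* (-1.97) and *C1qa* (-1.91) lower. The part of these shifts in the helicase results was not tested.

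Helicase mRNAs differed widely in level, as compared in CPM per kilobase of the annotated transcript. *Ddx5*, a transcriptional coactivator that also helps to process microRNA precursors, was highest in control CFU-E at 954 ± 37.05 CPM per kilobase (SD, n = 3). *Ddx27* at 196 ± 11.96, *Ddx39b* at 185 ± 3.40 and *Ddx47* at 177 ± 1.79 CPM per kilobase came next, and the ranges of *Ddx27* and *Ddx39b* overlapped. *Ddx56* (140 ± 3.90) and *Ddx39* (139 ± 9.80) followed with overlapping ranges. Lengths were those of 1 annotated transcript per gene (3836 bases for *Ddx39*), so the ranks rest on that choice. *Adgre5* on the opposite strand overlaps 17.4% of the exon bases of *Ddx39*. Of these high transcripts, *Ddx27* and *Ddx56* serve large ribosomal subunit assembly, *Ddx47* serves the small subunit, and *Ddx39b* and *Ddx39* load export factors on mRNA. At the low end stood *Ddx60*, *Dhx36*, *Ddx51* and *Dhx57*, at 2.26, 3.28, 3.48 and 3.84 CPM per kilobase. The germline helicases were lower still, with *Ddx4* (Vasa) at 1.87 CPM per kilobase and *Ddx25* at 0.0872.

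All helicases together made up 9885 to 10660 CPM of the control libraries and 9101 to 9566 CPM of the libraries labelled CFU-E Kit-lo, and these ranges did not overlap. *Ddx5* alone held 32.4 to 32.9% of the control sum. Its own values were 3459, 3245 and 3486 CPM in control and 2622, 2890 and 2535 CPM in the libraries labelled CFU-E Kit-lo. Every control library was above every library of the other group, and *Ddx5* fell by 0.34 on the log2 scale (standard error 0.08, adjusted p = 0.0060), less than the 1.5-fold threshold for a differentially expressed gene (DEG). Without *Ddx5* the helicase sums were 6640 to 7202 and 6442 to 6944 CPM, which overlapped. Of the 31-base words in the exons of *Ddx5*, 78.9% were unique to it and 18.5% also lay in *Gm12183*, so part of its count is uncertain.

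Between the libraries labelled CFU-E Kit-lo and control CFU-E, helicase mRNAs were more often slightly lower than higher, and few crossed the DEG thresholds of a 1.5-fold change and an adjusted p under 0.05. In bulk RNA, fewer cells of a type and less RNA per cell cannot be told apart. The median log2 fold change of the 48 helicases was -0.22, beside 0.01 over all 11979 genes tested. Of the 48, 33 were below 0 and 15 above it (31.25% above, beside 50.6% of all genes). DEGs numbered 5 higher (10.4% of the helicases, beside 12.1% of all genes tested) and 4 lower (8.33%, beside 9.83%), so the share of DEGs was near that of all genes in both directions. With library sizes alone as the scaling the split was 5 and 2. With the adjusted p alone, 8 were higher (16.7%, beside 17.6% of all genes) and 15 were lower (31.2%, beside 16.9%). Groups that did not overlap were found for 11 helicases in the higher direction (22.9%, beside 23.5% of all genes) and for 19 in the lower direction (39.6%, beside 24.0%). Most of the helicases that were lower had changes of less than 1.5-fold.

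**Figure D1:**
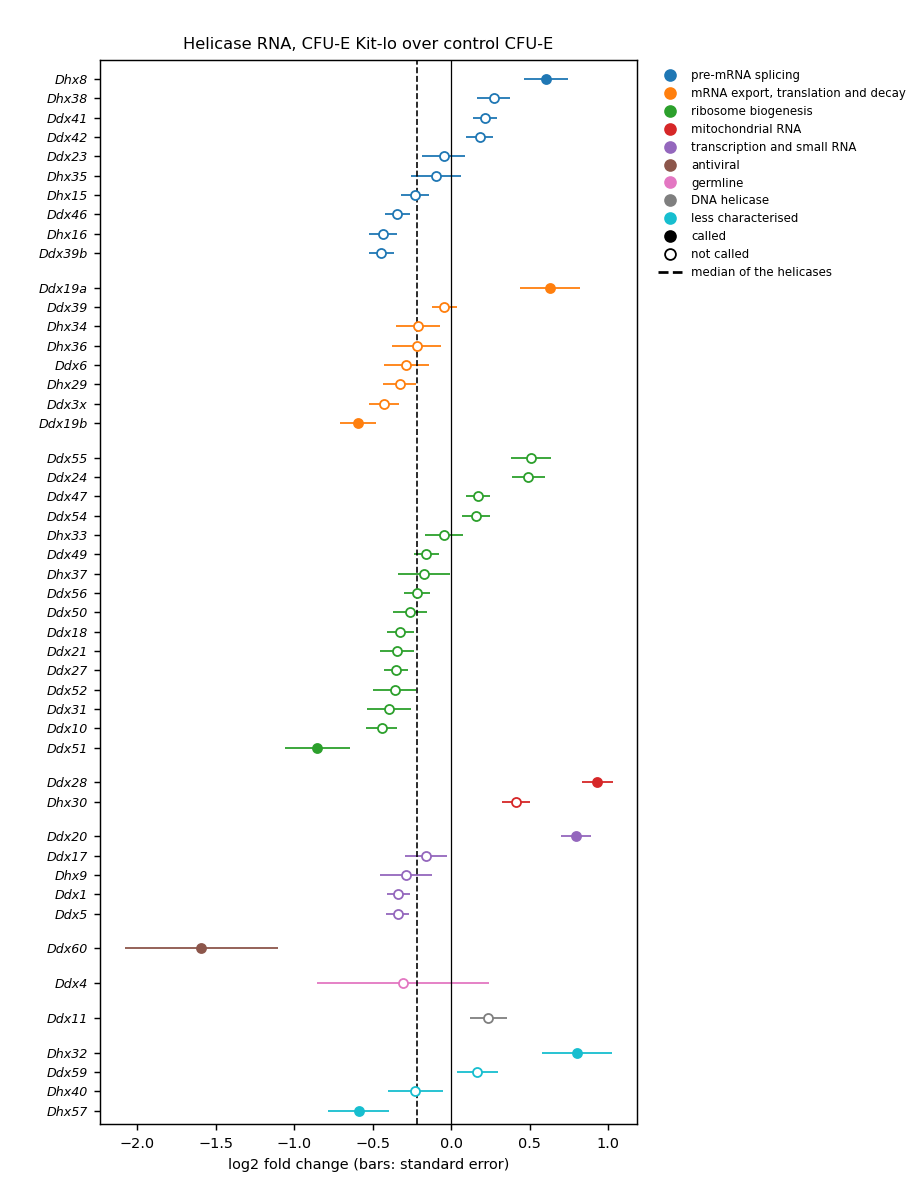
Log2 fold change of the 48 tested helicases (x axis, bars are standard errors) in the libraries labelled CFU-E Kit-lo over control CFU-E, grouped and coloured by role. Filled points are the 9 DEGs, from Ddx60 at -1.59 to Ddx28 at 0.93, and the dashed line is the helicase median of -0.22.

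Of the 2 helicases that work on RNA in mitochondria, both were higher by the adjusted p alone (17.6% of all genes tested were). Of these, 1 was a DEG (12.1% of all genes tested were DEGs that rose). *Ddx28*, which takes part in assembly of the large mitochondrial ribosomal subunit, had the largest rise of the family. It was at 61.0, 56.9 and 57.6 CPM in control against 117, 102 and 116 CPM in the libraries labelled CFU-E Kit-lo. Every library of the latter was well above every control library, and the rise was 0.93 on the log2 scale (standard error 0.10, adjusted p = 7.4e-05). It was the only helicase still called by a test against a fold of 1.5. *Ddx28* is a gene of 1 exon on chr8:106009621-106011882 (minus strand, GRCm38), of which 72 bases overlap *Dus2* on the opposite strand. *Dhx30*, found in mitochondrial RNA granules, rose from 121 to 135 CPM in control to 161 to 186 CPM without overlap, by 0.41 (standard error 0.09, adjusted p = 0.0061), below the DEG fold.

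Among the 10 splicing helicases, 1 was a DEG, which rose (12.1% of all genes tested were DEGs that rose). *Dhx8*, which releases the finished mRNA from the spliceosome, was at 112, 81.7 and 117 CPM in control against 175, 155 and 143 CPM in the libraries labelled CFU-E Kit-lo. The groups did not overlap, although control replicate 2 was lower than the other controls, and the rise was 0.61 (standard error 0.14, adjusted p = 0.0073). It stayed under the DEG fold without control replicate 2 (0.46) and with CFU-E Kit-lo replicate 1 left out (0.52). Lower with smaller changes were *Ddx39b* (518 to 537 CPM in control, 356 to 420 in the other group, log2 fold change -0.45), *Dhx16* (-0.43) and *Ddx46* (-0.34), with adjusted p of 0.0018, 0.0040 and 0.0078. *Ddx39b* recruits the U2 particle and couples splicing to export, *Dhx16* activates the spliceosome before its first step, and *Ddx46* acts at the branch site. The other 6 did not pass the test: *Dhx38*, *Ddx41* and *Ddx42* lay between 0.18 and 0.27, and *Ddx23*, *Dhx35* and *Dhx15* between -0.23 and -0.05. *Ddx41*, a gene mutated in myeloid neoplasms, was at 188 to 203 CPM in control and 220 to 236 CPM in the libraries labelled CFU-E Kit-lo, separated but with an adjusted p of 0.054.

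*Ddx20* (Gemin3), a subunit of the SMN complex that assembles spliceosomal snRNPs, was higher. It was at 86.7, 76.9 and 77.8 CPM in control against 151, 133 and 135 CPM in the libraries labelled CFU-E Kit-lo. The groups stood far apart, and the rise was 0.80 on the log2 scale (standard error 0.10, adjusted p = 0.00018). Its partner in that complex, *Gemin4*, was at 135, 144 and 142 CPM in control and at 396, 424 and 439 CPM in the other group, a rise of 1.58 (standard error 0.08, adjusted p = 9.1e-07). The rest of the helicases that serve transcription and small RNAs were below 0. *Ddx1*, a component of the tRNA ligase complex, fell from 208 to 218 CPM to 163 to 173 CPM, by 0.34 (standard error 0.08, adjusted p = 0.0065). *Ddx17* and *Dhx9*, at -0.16 and -0.29, did not pass the test.

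The 16 ribosome biogenesis helicases were mostly a little lower, with 1 DEG, which fell (9.83% of all genes tested were DEGs that fell). *Ddx51*, which frees U8 snoRNA from the large subunit precursor, was at 17.7, 17.8 and 15.2 CPM in control against 7.69, 8.50 and 11.8 CPM in the libraries labelled CFU-E Kit-lo. The groups did not overlap, and the fall was 0.85 (standard error 0.21, adjusted p = 0.0097). By the adjusted p alone, *Ddx10* (-0.44), *Ddx27* (-0.35), *Ddx21* (-0.34) and *Ddx18* (-0.32) were also lower, with adjusted p of 0.0059, 0.0058, 0.031 and 0.016. *Ddx21*, which links RNA polymerase I transcription to rRNA processing, was at 457 to 558 CPM in control and 365 to 460 CPM in the other group, so the groups overlapped. Only 34.5% of the 31-base words of *Ddx18* were unique to it, and 61.5% were shared with *Gm16433*, so its level is uncertain. Against this direction, *Ddx24* and *Ddx55*, both of large subunit assembly, were higher. *Ddx24* was at 360, 336 and 349 CPM in control against 566, 421 and 483 CPM in the libraries labelled CFU-E Kit-lo (log2 fold change 0.49, standard error 0.10, adjusted p = 0.0048). *Ddx55* was at 43.5 to 47.3 and 54.7 to 73.5 CPM (0.51, adjusted p = 0.011). Neither set of groups overlapped. The other 9 did not pass the test and ran from *Ddx31* at -0.39 to *Ddx47* at 0.17, so the group held 12 members below 0 and 4 above.

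**Figure D2:**
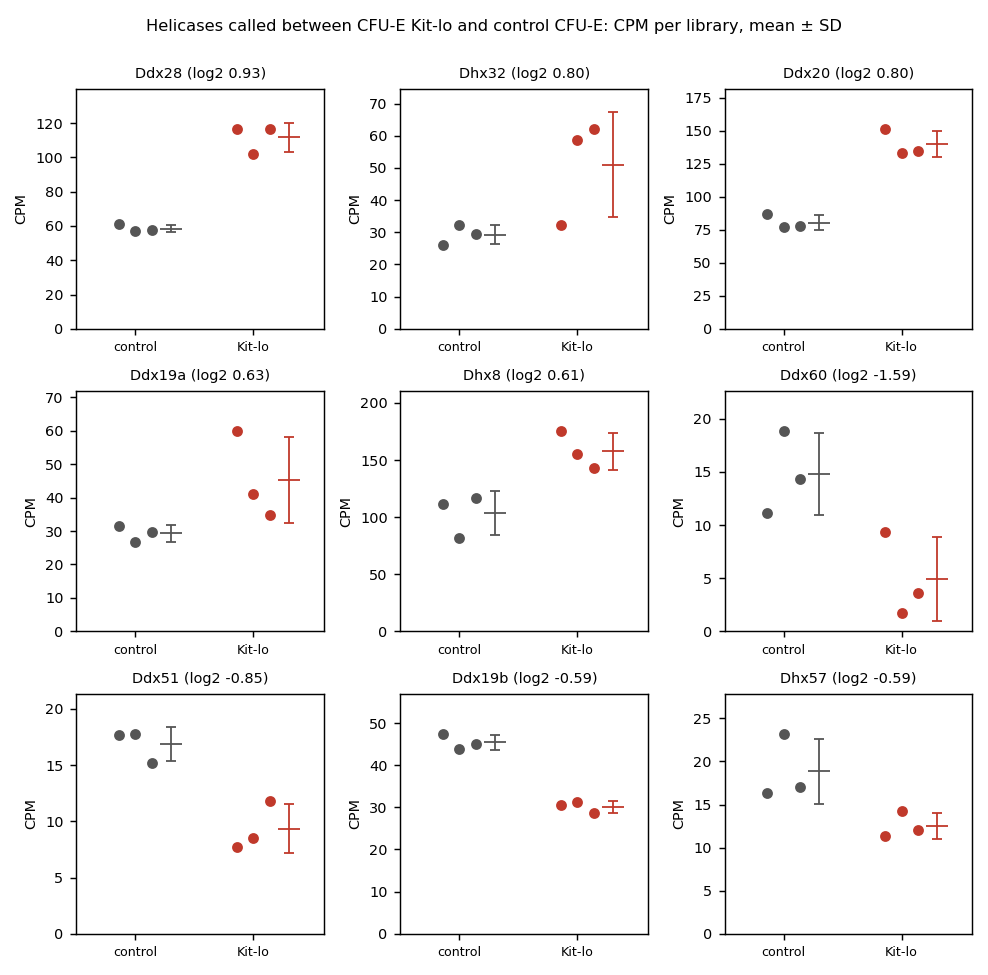
CPM per library (y axis, from 0) of the 9 helicase DEGs in 3 control and 3 CFU-E Kit-lo libraries (points), with the mean ± SD beside them. Dhx32 is the only one of the 9 whose groups overlap (control up to 32.3 CPM, CFU-E Kit-lo from 32.3 CPM).

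The cytoplasmic helicases of mRNA export, translation and decay held a pair of paralogs that moved in opposite directions. *Ddx19a* and *Ddx19b* are neighbours on the minus strand (chr8:110974996-110997800 and chr8:111003188-111031751, GRCm38), and their products remodel mRNPs at the cytoplasmic face of the nuclear pore. Their coding sequences share 93.6% of aligned bases. The 60 coding bases round the codons of the Asp-Glu-Ala-Asp motif are shown first because they are the same in both genes (0 differing bases). By themselves they cannot assign a read to 1 gene, while a read that runs past them can meet differing bases. The 60 bases lie at coding bases 697 to 756 of *Ddx19a* and 700 to 759 of *Ddx19b*, and capitals within them mark the 4 codons of the motif.
Ddx19a: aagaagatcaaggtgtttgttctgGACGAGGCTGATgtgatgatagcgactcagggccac
Ddx19b: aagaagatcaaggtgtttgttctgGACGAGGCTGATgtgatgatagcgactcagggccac
The stretch of the same length that differs most, at coding bases 442 to 501 and 445 to 504, has 18 differing bases, shown in capitals.
Ddx19a: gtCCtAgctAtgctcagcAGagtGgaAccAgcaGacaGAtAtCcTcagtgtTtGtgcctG
Ddx19b: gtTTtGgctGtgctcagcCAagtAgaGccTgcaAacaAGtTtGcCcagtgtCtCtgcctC
Over all exons, 68.01% of the 31-base words of *Ddx19a* and 85.6% of those of *Ddx19b* were unique to the gene, and how the shared reads were divided between them limits both values.

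*Ddx19a* was at 31.6, 26.7 and 29.7 CPM in control against 59.8, 41.2 and 34.9 CPM in the libraries labelled CFU-E Kit-lo. The groups did not overlap, with CFU-E Kit-lo replicate 1 highest, and the rise was 0.63 (standard error 0.19, adjusted p = 0.028). The call was lost when CFU-E Kit-lo replicate 1 was left out (log2 fold change 0.37, adjusted p = 0.076) and without any 1 control library (0.56 to 0.68, adjusted p 0.062 to 0.10). *Ddx19b* was at 47.5, 43.9 and 44.9 CPM in control and at 30.4, 31.2 and 28.6 CPM in the other group. It was separated and tight within groups, and the fall was 0.59 (standard error 0.11, adjusted p = 0.0028). Its change lay just past the DEG fold, and was -0.57 without control replicate 1 and -0.55 with CFU-E Kit-lo replicate 3 left out. The ratio of *Ddx19a* to *Ddx19b* was 0.665, 0.608 and 0.660 in control and 1.97, 1.32 and 1.22 in the libraries labelled CFU-E Kit-lo, so it was higher in each of the latter than in any control. An exact two-sided permutation test of this ratio gave p = 0.1, the smallest that 3 libraries against 3 allow. After Benjamini-Hochberg adjustment over 4 paralog ratios it was 0.2. As the groups of the 2 genes had separated in opposite directions, the ratio had to separate and this p was fixed in advance. The test therefore adds nothing to the results of the single genes.

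The same ratio was taken for 3 further pairs. For *Ddx39* over *Ddx39b*, whose coding sequences share 80.9% of aligned bases, it was 1.09, 0.965 and 0.978 in control and 1.41, 1.47 and 1.16 in the libraries labelled CFU-E Kit-lo. These did not overlap (exact permutation p = 0.1, adjusted 0.2), and *Ddx39* itself was at 500 to 574 and 488 to 540 CPM (log2 fold change -0.04, adjusted p = 0.72). The ratios of *Ddx5* to *Ddx17* (25.2 to 38.6 over all libraries) and of *Ddx21* to *Ddx50* (2.27 to 3.48) overlapped between groups, each with exact permutation p = 0.7.

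Other helicases of translation and decay were below 0. *Ddx3x*, which helps ribosomes through structured leaders, was at 187, 168 and 193 CPM in control against 128, 131 and 149 CPM in the libraries labelled CFU-E Kit-lo. The groups did not overlap, and it fell by 0.43 (standard error 0.09, adjusted p = 0.0061). Its Y-linked copy *Ddx3y* was near 0 in all 6 libraries, at 0.229 to 0.631 CPM (4 to 13 counts). Of the other Y-linked genes measured, *Eif2s3y* and *Uty* were also near 0, with 0 to 9 and 1 to 13 counts, and *Kdm5d* was at 2.18 to 3.83 CPM in control and 2.86 to 5.53 CPM in the other group. *Dhx29*, which assists scanning, fell by 0.33 (71.4 to 84.6 CPM against 59.6 to 65.5 CPM, adjusted p = 0.034). *Ddx6*, the decapping activator of P-bodies, was at 95.3 to 114 and 66.2 to 97.4 CPM and did not pass the test (-0.29, adjusted p = 0.16). *Dhx34* and *Dhx36*, of nonsense-mediated decay and G-quadruplex unwinding, were at -0.21 and -0.22 and did not pass either.

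The largest fall of the family belonged to *Ddx60*, an interferon-induced helicase of antiviral defence. It was at 11.1, 18.8 and 14.4 CPM in control against 9.35, 1.75 and 3.60 CPM in the libraries labelled CFU-E Kit-lo. CFU-E Kit-lo replicate 1 came close to the lowest control but the groups did not overlap, and the fall was 1.59 on the log2 scale (standard error 0.49, adjusted p = 0.030). The libraries labelled CFU-E Kit-lo differed widely among themselves, with 36 to 180 counts, beside 232 to 329 in control. With control replicate 2 or 3 left out, or with replicate 2 or 3 of the libraries labelled CFU-E Kit-lo left out, its log2 fold change was -1.62 to -1.16 and its adjusted p was 0.068 to 0.10. Without replicate 1 of the latter it was -2.47 (adjusted p = 0.00059).

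Of the helicases with little known function, *Dhx32* was a DEG that rose and *Dhx57* a DEG that fell. *Dhx32* was at 26.2, 32.3 and 29.4 CPM in control against 32.3, 58.8 and 62.2 CPM in the libraries labelled CFU-E Kit-lo. CFU-E Kit-lo replicate 1 sat at the level of the highest control, so the groups overlapped, and the rise was 0.80 (standard error 0.22, adjusted p = 0.019). With control replicate 1 or 3, or replicate 2 of the libraries labelled CFU-E Kit-lo, left out the adjusted p was 0.063 to 0.080 (log2 fold change 0.71 to 0.80). *Dhx57* was at 16.4, 23.2 and 17.1 CPM in control and at 11.3, 14.2 and 12.05 CPM in the other group. Without overlap, it fell by 0.59 (standard error 0.19, adjusted p = 0.038), just past the DEG fold. The adjusted p was 0.065 to 0.16 when control replicate 2 or 3, or replicate 1 or 3 of the other group, was left out, with log2 fold changes of -0.66 to -0.42. *Ddx59* (0.17) and *Dhx40* (-0.23), and *Ddx11*, a DNA helicase of sister chromatid cohesion (0.24), did not pass the test.

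Both germline helicases were low. *Ddx25* had 8, 22 and 3 counts in control and 0 in each library labelled CFU-E Kit-lo. It did not pass the filter on low counts, and a count of 0 in a library can still come from an expected count of about 3. *Ddx4* was at 1.44 to 7.15 CPM in control and 2.29 to 5.42 CPM in the other group, with overlap (-0.31, adjusted p = 0.71).

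A list of 20 other RNA helicases was set beside the helicases of the symbol rule. It was kept apart by symbol only, so it can hold DEAD or DEAH box proteins with other names. Of 19 tested, 3 were DEGs that rose and 1 that fell, and the median log2 fold change was 0.06. Over all genes tested, 12.1% were DEGs that rose and 9.83% DEGs that fell. *Znfx1*, an interferon-responsive helicase, rose from 15.9 to 20.1 CPM to 42.1 to 60.2 CPM (1.53, standard error 0.16, adjusted p = 8.7e-05), and *Helz2* and *Mov10* rose by 0.97 and 0.65 (adjusted p = 0.0039 and 0.026). *Eif4a2*, a paralog of the translation initiation helicase *Eif4a1*, was at 545, 507 and 535 CPM in control and at 291, 418 and 244 CPM in the other group, and it fell by 0.74 (standard error 0.16, adjusted p = 0.0060). A second list held 33 partners of helicases, of which 1 rose (*Gemin4*, above) and 2 fell as DEGs, with a median of -0.07. The same shares of all genes stand beside these counts. *Eif4b*, which stimulates Eif4a, was at 729, 756 and 785 CPM in control against 370, 389 and 456 CPM in the libraries labelled CFU-E Kit-lo, a fall of 0.90 (standard error 0.09, adjusted p = 5.6e-05). *Patl1*, a decapping factor that binds Ddx6, fell from 9.50 to 10.9 CPM to 2.92 to 3.32 CPM, by 1.68 (standard error 0.23, adjusted p = 0.00042).

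The m6A experiment asked which transcripts of control CFU-E were captured by the antibody. RNA was not fragmented before capture and libraries were primed at the poly(A) tail, so a ratio of IP to input belongs to a whole transcript and does not place m6A within it, and counts were not scaled by length. The input libraries held the helicases in other proportions than the RNA-seq libraries: *Ddx39* made up 37.2 and 42.0% of the summed helicase CPM in input but 4.95 to 5.38% in control RNA-seq, and *Ddx5* 6.66 and 4.87% in input. Values of the 2 experiments are therefore not set against each other as levels, apart from *Alyref* below.

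Helicase transcripts were more often above input than below it, and 7 were called. The median log2 fold change of IP over input was 0.33 over the 49 helicases, beside 0.06 over all 11447 genes tested. Of the 49, 35 were above 0 (71.4%, beside 53.2% of all genes). Higher in IP were 5 (10.2%, beside 7.90% of all genes tested) and lower 2 (4.08%, beside 7.86%). Both shares were a few genes away from those of all genes. Groups did not overlap for 24 helicases in the higher direction (49.0%, beside 32.2% of all genes) and for 9 in the lower direction (18.4%, beside 28.7%). The median depended on the IP library used: it was 0.62 without IP replicate 2 and 0.19 without IP replicate 1, beside 0.07 and -0.01 over all genes. The split of calls moved with the scaling, to 10 higher and 2 lower with upper quartile scaling and to 6 and 0 with library sizes alone. Over all genes it moved as well, from 904 higher and 900 lower to 1451 and 754 with the first and to 934 and 608 with the second. Without IP replicate 2 the helicase calls were 10 and 0 (1358 and 968 over all genes), and without IP replicate 1 they were 1 and 2 (433 and 740).

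**Figure D3:**
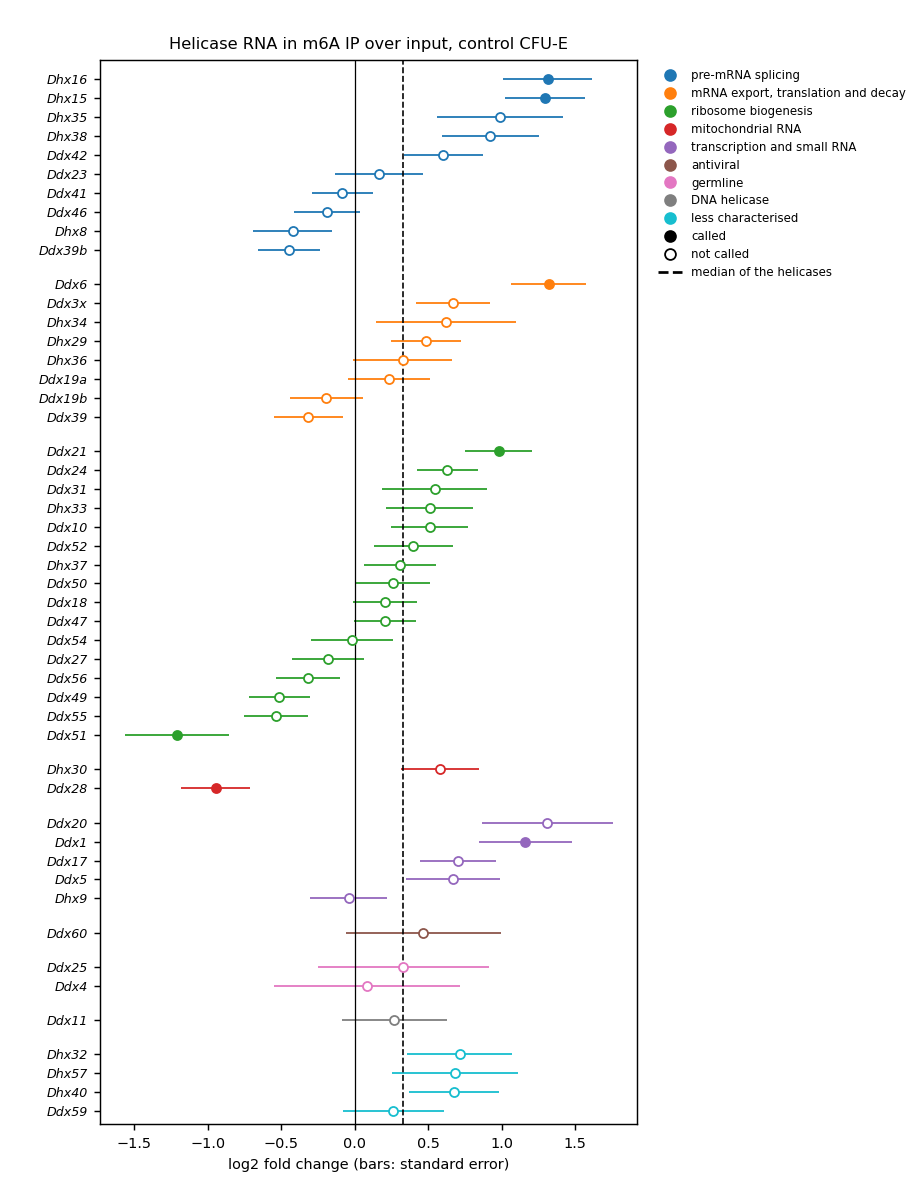
Log2 fold change of IP over input (x axis, bars are standard errors) for the 49 helicases in control CFU-E, grouped and coloured by role. Filled points are the 5 called higher, from Ddx21 at 0.98 to Ddx6 at 1.32, and the 2 called lower, Ddx28 at -0.95 and Ddx51 at -1.21, and the dashed line is the helicase median of 0.33.

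Mettl3 methylates adenosine in a short sequence context of which GGACT is a common form. Since these counts cannot place m6A, the 25 bases round the GGACT nearest to the stop codon are printed for the 7 called transcripts only to show the context of the motif, with the motif in capitals and the DNA letters of the transcript strand (GRCm38).
Ddx6, chr9:44637080-44637104, plus strand, 3′ UTR: gccggaaggtGGACTagtgatggca
Dhx16, chr17:35884033-35884057, plus strand, coding: tccggtttgaGGACTgcacctcaga
Dhx15, chr5:52154074-52154098, minus strand, coding: tcacaagcagGGACTattatattaa
Ddx1, chr12:13218793-13218817, minus strand, 3′ UTR: tggagcctttGGACTcctaggtgag
Ddx21, chr10:62582321-62582345, minus strand, 3′ UTR: aggccagaagGGACTgttcccactg
Ddx28, chr8:106009832-106009856, minus strand, coding: aagccttccaGGACTagcatcttca
Ddx51, chr5:110657759-110657783, plus strand, 3′ UTR: ctctcgggttGGACTgctggtgtcc
Distances from the stop codon, here and below, are counted from its first base. The adenosine of the motif lies 19 bases past the stop codon in *Ddx21*, 40 bases before it in *Ddx28* and 166 past it in *Ddx51*. On the transcript strand, GGACT was present at least once in the annotated transcript of 49 of 49 helicases and of 91.4% of all genes tested with an annotated length, so presence does not separate them. Its density had a median of 0.982 per kilobase over the helicases and 1.04 over all genes. The 2 transcripts lower in IP held 4 (*Ddx28*) and 5 (*Ddx51*), and the 5 that were higher held from 1 (*Dhx15*) to 7 (*Ddx6*).

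*Ddx6*, which represses and decaps mRNAs in P-bodies, had the largest ratio. It was at 12.9 and 10.8 CPM in input and at 30.8 and 28.3 CPM in IP. Both IP libraries were more than 2-fold above both inputs, and the ratio was 1.32 on the log2 scale (standard error 0.25, adjusted p = 0.0068). It was the one helicase called with each library left out in turn (1.19 to 1.43).

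Of the 10 splicing helicases, 2 were called and both were higher (7.90% of all genes tested were called higher). *Dhx16* was at 10.1 and 7.53 CPM in input and at 26.4 and 17.5 CPM in IP, a ratio of 1.31 (standard error 0.30, adjusted p = 0.016). *Dhx15*, which takes apart the lariat spliceosome, was at 14.95 and 15.3 CPM in input and at 44.1 and 30.0 CPM in IP, a ratio of 1.29 (standard error 0.27, adjusted p = 0.010). In both, IP replicate 1 was the higher IP library. Without it the ratios were 0.97 and 0.97 with adjusted p of 0.0712 and 0.0515, and without input replicate 1 they were 1.52 and 1.25 (0.056 and 0.089). *Dhx16* was also lost without input replicate 2 (1.11, adjusted p = 0.084).

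*Ddx1* was at 90.1 and 58.3 CPM in input and at 215 and 116 CPM in IP, a ratio of 1.16 (standard error 0.32, adjusted p = 0.034). *Ddx21* was at 29.4 and 27.5 CPM in input and at 58.8 and 53.4 CPM in IP, a ratio of 0.98 (standard error 0.23, adjusted p = 0.018). Neither gene's groups overlapped. Both calls were lost without input replicate 1 (1.48 and 1.01, adjusted p = 0.055 and 0.12), without input replicate 2 (0.87 and 0.92, 0.15 and 0.11) and without IP replicate 1 (0.63 and 0.89, 0.22 and 0.067). *Ddx20* had a ratio as high as theirs, at 1.31, but was not called (standard error 0.45, adjusted p = 0.071). Its values were 11.99 and 7.98 CPM in input and 36.99 and 12.4 CPM in IP, so that IP replicate 2 was barely above input replicate 1. The ratio was 0.29 without IP replicate 1 and 1.88 without IP replicate 2 (adjusted p = 0.65 and 0.0016). It was called by DESeq2 (1.25, adjusted p = 0.020), with upper quartile scaling (1.42, 0.028) and with the replicate block (1.16, 0.0028).

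**Figure D4:**
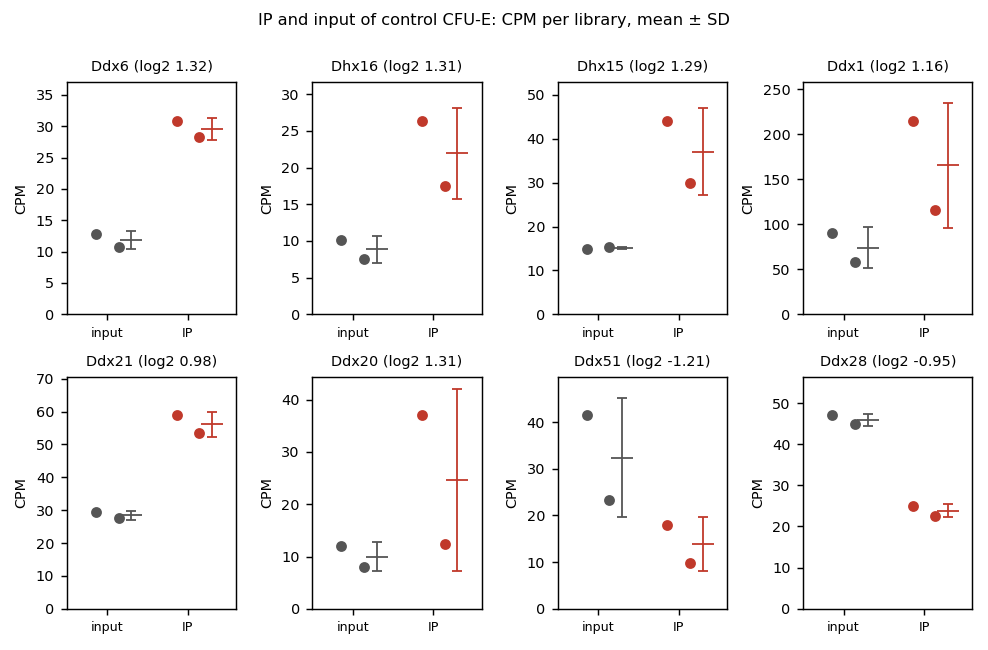
CPM per library (y axis, from 0) in 2 input and 2 IP libraries of control CFU-E (points, mean ± SD beside them) for the 7 helicases called and for Ddx20, which was not called. The IP replicates lie close together for Ddx6 (30.8 and 28.3 CPM) and far apart for Ddx20 (36.99 and 12.4 CPM).

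The 2 transcripts lower in IP were *Ddx28* and *Ddx51*. *Ddx28* was at 47.0 and 44.9 CPM in input and at 24.96 and 22.7 CPM in IP. Replicates stood close together and the groups far apart, and the ratio was -0.95 (standard error 0.23, adjusted p = 0.022). *Ddx51* was at 41.4 and 23.4 CPM in input and at 18.0 and 9.85 CPM in IP, separated but with a wide spread in both groups (-1.21, standard error 0.36, adjusted p = 0.044). *Ddx28* was -0.94 without input replicate 1 (adjusted p = 0.14), -0.99 without input replicate 2 (0.072) and -0.88 without IP replicate 2 (0.057). *Ddx51* was -0.76 without input replicate 1 (adjusted p = 0.32) and -0.85 without IP replicate 2 (0.12). With library sizes alone as the scaling neither was called, at -0.79 and -1.04 (adjusted p = 0.084 and 0.12), and that scaling moved the median of all genes from 0.06 to 0.21.

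Several helicases with a close paralog did not pass the test in IP. *Ddx3x* was at 26.4 and 25.5 CPM in input and at 47.6 and 34.7 CPM in IP (0.67, adjusted p = 0.098), and *Ddx17* was at 11.7 and 14.4 CPM in input and at 20.8 and 21.6 CPM in IP (0.70, adjusted p = 0.089). *Ddx5*, the paralog of *Ddx17*, had nearly the same ratio but overlapping groups, with 289 and 205 CPM in input and 525 and 261 CPM in IP (0.67, adjusted p = 0.18). *Ddx39* and *Ddx39b* were both below input (-0.32 and -0.45, adjusted p = 0.38 and 0.18). *Ddx19a* and *Ddx19b* were at 0.24 and -0.19 (adjusted p = 0.60 and 0.64), a difference that was not tested, and the GGACT windows in their 3′ UTRs, 145 bases past the stop codon in each, have the same 25 bases: aattacgtttGGACTtgacaaattt (chr8:110975874-110975898 and chr8:111008095-111008119, minus strand). The 4 less characterised members were all above 0, at 0.26 to 0.71, and none passed the test.

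By role, the median ratio was 0.70 for the 5 helicases of transcription and small RNAs, 0.41 for the 8 of export, translation and decay, 0.39 for the 10 of splicing and 0.23 for the 16 of ribosome biogenesis. Each of these 4 roles held members on both sides of 0. Among the 49 helicases the ratio correlated with annotated transcript length at a Spearman rho of 0.29, beside 0.33 over 11419 genes, and with GGACT per kilobase at -0.10, beside -0.07. The rho with input CPM was -0.44, beside -0.34 over all genes. The genes of each correlation share libraries and are not independent, and the part of length and level in the ratios was not tested.

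Among the other RNA helicases, 4 of 19 tested were higher in IP and 3 lower, with a median of 0.74. Over all genes tested, 7.90% were called higher and 7.86% lower. Those higher were *Dqx1* (1.66), *Skiv2l* (1.21), *Mtrex* (1.16) and *Snrnp200* (0.98), and those lower were *Ythdc2* (-1.56), *Upf1* (-1.21) and *Eif4a1* (-0.91), with adjusted p of 0.0056 to 0.039. *Ythdc2*, itself an m6A-binding helicase, was at 12.5 and 16.4 CPM in input and at 4.87 and 4.92 CPM in IP. Of the 33 partners 7 were higher and 2 lower, with a median of 0.36, beside the same shares of all genes. *Eif4enif1* and *Eif4g1*, at 1.07 and 1.06, were among the higher (adjusted p = 0.012 and 0.035). *Alyref*, an export adaptor that works with Ddx39b, was at 972 and 865 CPM in input and at 17.3 and 29.0 CPM in IP. The ratio was -5.32 (standard error 0.32, adjusted p = 4.9e-06). In control RNA-seq *Alyref* was at 22.0 to 22.5 CPM, so this ratio rests on a high input level that RNA-seq did not show. The reason for that difference was not tested.

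Set side by side, the 5 helicases captured above input were all below 0 in the RNA-seq contrast, and none was a DEG. Of the 864 genes captured above input and tested in both experiments, 55.3% were below 0, and 88 were DEGs that fell and 89 DEGs that rose, so with 5 helicases a count of 0 DEGs is near that share. Their RNA log2 fold changes were -0.43 for *Dhx16*, -0.34 for *Ddx1* and *Ddx21*, -0.29 for *Ddx6* and -0.23 for *Dhx15*, of which the first 3 passed the adjusted p. The median was -0.34, beside -0.06 over those 864 genes and beside -0.22 over all helicases. The 2 captured below input split, as *Ddx28* was the helicase with the largest rise and *Ddx51* was a DEG that fell. The 9 helicase DEGs had IP ratios from -1.21 to 1.31, with 5 above 0 in IP and 4 below. Over the 48 helicases the Spearman rho of the RNA-seq change with the IP ratio was -0.05, beside -0.03 over 10773 genes. These genes share libraries within each contrast and are not independent. The contrasts share no library, and no m6A libraries of *Mettl3*-deficient cells were analysed here.

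**Figure D5:**
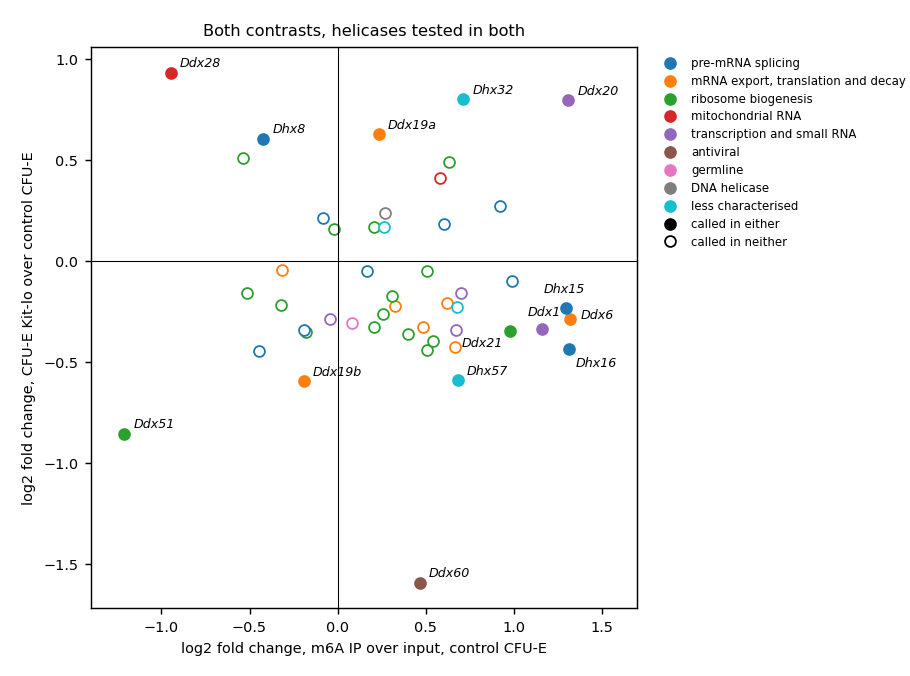
RNA-seq log2 fold change of the libraries labelled CFU-E Kit-lo over control (y axis) against log2 fold change of IP over input in control CFU-E (x axis) for the 48 helicases tested in both, coloured by role, with those called in either contrast filled and named. The 5 transcripts higher in IP (Ddx21, Ddx1, Dhx15, Dhx16 and Ddx6) lie between -0.43 and -0.23 on the y axis. On the left, Ddx28 and Ddx51 lie at 0.93 and -0.85 on that axis.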

How the data were processed

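The authors filtered reads with fastp 0.23.4, quantified them with Kallisto 0.48.0 on mm10 (the submitters' processing notes also list GRCm39) and deposited estimated counts per gene that are whole numbers and not normalized. Smart-seq2 served for the RNA-seq and SLIM-seq for IP and input, the latter with a molecular identifier whose use in counting is not given in the sources used here; nor is the strand. PCR copies are not independent molecules. Of 16 samples, 10 had a column; the 6 ProE samples were not analysed here.

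Counts were tested with edgeR 4.0.16 (TMM, filterByExpr, quasi-likelihood test, Benjamini-Hochberg adjustment over all genes tested), 1 fit per experiment, after a check on simulated data. The paper's DESeq2 and TPM filter were not the main test; the alternatives were DESeq2 1.42.0, other normalizations and thresholds, no filter, a replicate block and leaving out each library. The standard error is the absolute log2 fold change divided by the square root of F. CPM use TMM library sizes. Annotation is GENCODE M21 on GRCm38, which held 99.9% of symbols. No pair of libraries was identical.

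The members, roles and lists were chosen with earlier results of these data known. Full values are given for each DEG, the genes called in IP, the 5 highest levels and named paralogs; the rest appear by range and count. *Ddx20* in IP and *Ddx24*, *Ddx55* and *Ddx41* in RNA-seq were picked for fuller values after they were seen.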

Additional observations from a re-analysis of the deposited data

How the results depend on the processing

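In the RNA-seq contrast the count of helicases that rose was 5 with DESeq2, DESeq2's size factors, library sizes alone, no filter and the replicate block, and 4 with upper quartile scaling. The count that fell was 4, 4, 2, 5, 3 and 4 in the same order, and the fifth gene without a filter was *Ddx25*, whose counts were 0 in the libraries labelled CFU-E Kit-lo. By edgeR's test against a fold of 1.5 the counts were 1 and 0 (2 and 2 at an unadjusted p under 0.05, and 5 and 4 as DEGs with DESeq2), and by the adjusted p alone they were 8 and 15. Leaving out 1 library at a time gave 3 to 6 that rose and 1 to 3 that fell, the 1 being *Ddx51* when CFU-E Kit-lo replicate 3 was left out. The median of the 48 helicases ran from -0.26 to -0.17 over all settings, and by any scaling it was -0.23 relative to the median of all genes. *Ddx28* was called under each of the 13 alternatives that refit the contrast, and *Ddx20* and *Ddx51* under 12 of them.

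In the m6A contrast 6 helicases were higher with DESeq2 and with library sizes alone, and 10 with upper quartile scaling, while the number lower was 2, 0 and 2 (with library sizes alone, 2 at an unadjusted p under 0.05). Leaving out 1 library gave 1 to 10 higher, 0 to 2 lower and a median of 0.19 to 0.62. Without a library the counts lower in IP of 0 came with 1 (input replicate 1) and 2 (IP replicate 2) at an unadjusted p under 0.05. *Dhx34*, not called at 0.62, was 1.17 without IP replicate 2 and -0.39 without IP replicate 1.

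Replicate numbers did not pair the RNA-seq libraries (correlations of deviations 0.03, -0.02 and -0.07), and the labels do not say that they pair IP with input. With 2 libraries per group both numbers must give the same correlation (0.21), so it counts as 1 value. The replicate block gave 14 helicases higher in IP and 5 lower, and the calls over all genes rose with it, from 904 higher and 900 lower to 1783 and 1755. In the RNA-seq the block ended the call of *Dhx57* (-0.58). Of the 7 calls in IP, only that of *Ddx6* held whichever 1 library was left out.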
